A study of Mus musculus with 16 samples.

Results

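The pyruvate dehydrogenase complex and the enzymes that switch it off and on were followed through 16 arrays of ventricular cardiomyocytes, 1 array per mouse. The members were chosen by gene name, as every probe set whose symbol in the platform annotation is Pdk1, Pdk2, Pdk3, Pdk4, Pdp1, Pdp2, Pdha1, Pdhb, Dlat or Pdhx. All 10 genes were measured, by 17 of the 28898 probe sets that carry 1 gene symbol, and they are 10 of the 17097 genes tested. The 8 females were 4 GPER knockout (KO) and 4 GPER-intact mice, the 8 males were likewise 4 of each, and the labels give every animal an age of 15 weeks, where the study's methods give a somewhat later age. GPER is the G protein-coupled estrogen receptor. The study describes its deletion as specific to cardiomyocytes, while the labels say only GPER-knockout or wild type, and the promoter that drives the recombinase is not given in the sources used here. The labels give neither the feeding state of the mice nor the time of day at which hearts were taken.

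The complex turns pyruvate into acetyl-CoA in the mitochondrial matrix and so joins glycolysis to the citric acid cycle. Pyruvate dehydrogenase kinases (PDKs) phosphorylate its E1 subunit and switch it off, and pyruvate dehydrogenase phosphatases (PDPs) remove the phosphate and switch it on again. The heart burns mainly fatty acids, and in fasting or on a fatty diet it makes more PDK4, which spares glucose. Transcript levels, which are all that was measured here, say nothing directly of phosphorylation or of enzyme activity.

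All values below are log2 signals of a probe set after robust multi-array average (RMA) normalization, so that a difference of 1 is a doubling. Every difference is given as GPER KO minus intact, except where sexes are compared. A gene is called where limma's adjusted p (Benjamini-Hochberg over all genes) is under 0.05, and where a gene has several probe sets the brightest on average stands for it. Array medians lay between 3.47 and 3.51, and any pair of arrays correlated at 0.983 to 0.997 over all probe sets. The 11 measured cardiomyocyte markers averaged 12.28 to 12.44 on every array, and none of them was called in either sex or over both. Each lay at percentile 99.1 of all probe sets or above, so these readings cannot show that cardiomyocyte content was equal. The cells were enriched by straining and low-speed spinning and were not sorted, so that fewer cells of a type and less RNA per cell cannot be told apart. Gper1, the deleted gene, read 2.64 to 3.11 over the 16 arrays, at percentile 24.3 of all probe sets. Its means were 2.79 ± 0.13 in female GPER KO and 2.87 ± 0.16 in female intact mice, and 2.78 ± 0.07 in male GPER KO and 2.77 ± 0.12 in male intact mice (SD, n = 4 each). Whether its probes cover the deleted exons is not known here, so this reading checks nothing about the genotype labels. Female intact mice 421 and 422 stood apart in an earlier analysis of these data, so results that moved most without them are given both ways.

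The genes lie on 8 chromosomes (RefSeq, mouse assembly GRCm38.p6). Pdk4 lies on chromosome 6 from 5483351 to 5496278 and Pdp2 on chromosome 8 from 104591472 to 104599026. Pdha1, from 160122219 to 160138430, and Pdk3, from 93764616 to 93832150, are on the X chromosome. Pdk1 (71873215 to 71903858) and Pdhx (103021055 to 103073513) share chromosome 2. Pdk2 is on chromosome 11 (95026258 to 95041371), Pdp1 on chromosome 4 (11958183 to 11966450), Pdhb on chromosome 14 (8165991 to 8173303) and Dlat on chromosome 9 (50634633 to 50659780).

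The promoters of the 2 members that the results turn on are shown, Pdk4 because it varied most between arrays and Pdp2 because it alone was called. Each runs 5′ to 3′ on the gene's own strand, from 250 bases before to 50 bases after the RefSeq start (GRCm38.p6). Capitals mark copies of the motifs searched for, read on either strand.
Pdk4, chr6:5496229-5496528, minus strand: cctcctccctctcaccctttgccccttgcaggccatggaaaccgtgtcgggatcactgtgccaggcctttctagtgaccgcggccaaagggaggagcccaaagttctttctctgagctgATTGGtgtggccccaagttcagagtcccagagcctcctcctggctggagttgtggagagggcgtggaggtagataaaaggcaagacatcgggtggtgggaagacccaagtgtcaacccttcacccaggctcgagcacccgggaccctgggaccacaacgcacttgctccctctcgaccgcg
Pdp2, chr8:104591222-104591521, plus strand: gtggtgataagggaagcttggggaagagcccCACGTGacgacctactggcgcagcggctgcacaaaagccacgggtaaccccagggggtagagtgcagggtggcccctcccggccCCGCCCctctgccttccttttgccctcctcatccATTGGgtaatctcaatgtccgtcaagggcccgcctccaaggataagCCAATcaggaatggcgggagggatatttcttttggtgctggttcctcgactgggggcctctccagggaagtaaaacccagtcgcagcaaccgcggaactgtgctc
The Pdk4 window holds 1 CCAAT copy, in reverse, at position -131 from the start. The Pdp2 window holds the E-box CACGTG at -219, the GC box GGGCGG in reverse at -135, and CCAAT at -55 and, in reverse, at -101. CACGTG contains the hypoxia core ACGTG, which therefore matches there too. Of 32851 RefSeq promoters of this length, 37.4% hold CCAAT, 35.7% GGGCGG, 19.6% ACGTG and 7.15% CACGTG. Among 11 promoters of 9 members, CCAAT and GGGCGG each occur in 6, ACGTG in 4 and CACGTG in 2, those of Pdk2 and Pdp2. The nuclear receptor half-site AGGTCA (16.3% of all promoters), its extended form AAGGTCA (4.72%), which contains it, and the FOXO site GTAAACA (3.65%) occur in 0 of the 11. Pdp1 was not matched.

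**Figure D1:**
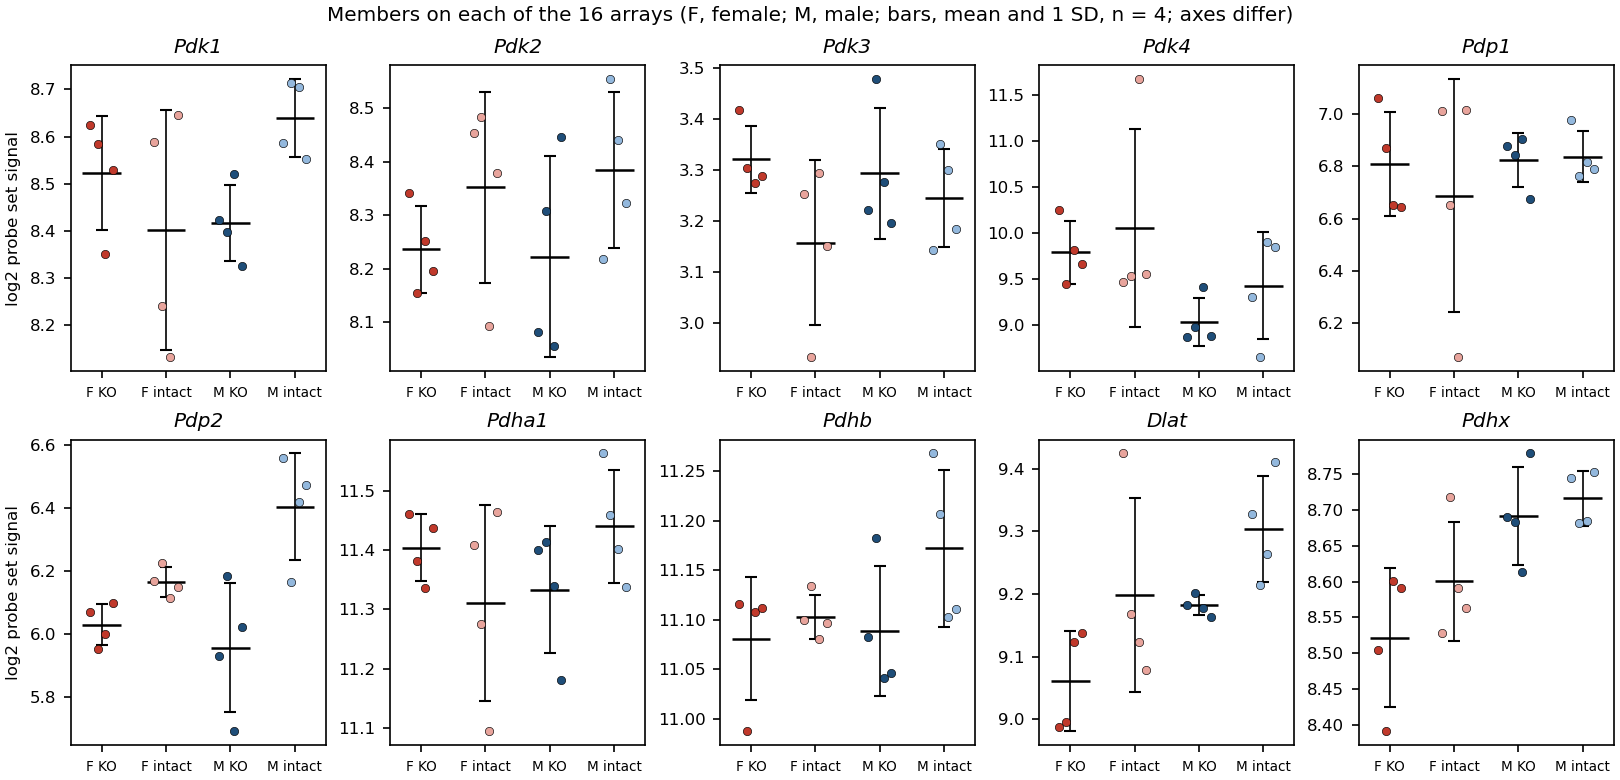
Log2 probe set signal of the 10 members (vertical axes, which differ between panels) on each of 16 arrays, with GPER KO (KO) left of intact within females (F) and males (M); points are mice, and bars show the mean and 1 SD of 4. Female intact mouse 422 stands at 11.67 for Pdk4, and 7 of the 8 GPER KO mice lie below every intact mouse for Pdp2 in their own sex.

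The kinase Pdk4 was the most variable member and one of the most variable genes on the array, and its genotype difference was small beside that spread. In females Pdk4 read 10.25, 9.44, 9.82 and 9.66 in GPER KO mice 417, 419, 426 and 427, against 9.47, 9.54, 11.67 and 9.56 in intact mice 418, 421, 422 and 425. In males it read 8.87, 8.98, 9.42 and 8.88 in GPER KO mice 431, 432, 444 and 451, against 9.30, 8.66, 9.91 and 9.85 in intact mice 430, 433, 452 and 453. The groups overlapped in both sexes, and the lowest reading of all was that of intact male 433. Mouse 422 stood 2.11 above the next intact female, which is 4.32-fold. From lowest to highest array Pdk4 spanned 3.01, or 8.08-fold, and its SD within groups of 0.648 was exceeded by 25 of 17097 genes, where the median gene had 0.111. That rank leans on mouse 422. By group the SD was 1.08 in female intact mice, which include 422, and 0.34 in female GPER KO mice. It was 0.58 in male intact and 0.26 in male GPER KO mice. The difference was -0.26 in females (SE 0.40, limma adjusted p = 0.834) and -0.39 in males (SE 0.40, limma adjusted p = 0.821). Exact permutation tests (two-sided, 4 against 4) gave p = 0.914 in females and p = 0.257 in males, where the smallest p such a design allows is 0.0286.

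The sign of the female Pdk4 difference rested on mouse 422. Without it the difference was 0.27 in females (SE 0.25, limma adjusted p = 0.798), -0.39 in males (SE 0.23, limma adjusted p = 0.600) and -0.06 over both sexes. Its difference between the sexes (male minus female) was -0.13 (SE 0.56) with all arrays and -0.66 (SE 0.34, limma adjusted p = 0.637) without 422. Neither passed the test.

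Mouse 422 was also high for many, but not all, other genes that fasting or fatty acids raise in heart. Of 21 such genes on a list that leaves out Pdk4, 19 were measured, and 422 had the highest reading of all 16 arrays for 11 of them. Averaged over the 19, mouse 422 read 9.83, and the other 15 arrays ranged between 9.12 and 9.50. Angptl4, an inhibitor of lipoprotein lipase, read 7.73 in 422, against 5.44 in mouse 421, the next highest array. Ucp3, a mitochondrial uncoupling protein, read 7.21 in 422 and 6.39 in 421, again the next highest. Other genes of the list were low in 422. Cd36 read 10.83 there, where male GPER KO 451 read 10.74 and male intact 430 read 11.46. Acadm read 11.56 in 422, against 11.49 in 451 and 11.86 in 430. Of 7 measured FOXO targets that insulin suppresses, 422 was highest of all 16 arrays for 0 and lowest for 1. Readings of 422 were also extreme in genes of the circadian clock. It was lowest of all 16 arrays for 5 of the 11 measured and highest for 2. Male intact mouse 433, which had the lowest Pdk4, was highest for 4 of the 11 and lowest for 2. The clock-controlled transcription factor Dbp read 5.83 in 422, where the next lowest array, male GPER KO 444, read 7.0. The core clock factor Arntl read 5.64 in 422 and at most 4.15 elsewhere. The single genes named here were picked after their values were seen. Whether 422 was fed or fasted is not given by the labels, and the part of feeding or of the clock in its Pdk4 level was not tested.

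**Figure D2:**
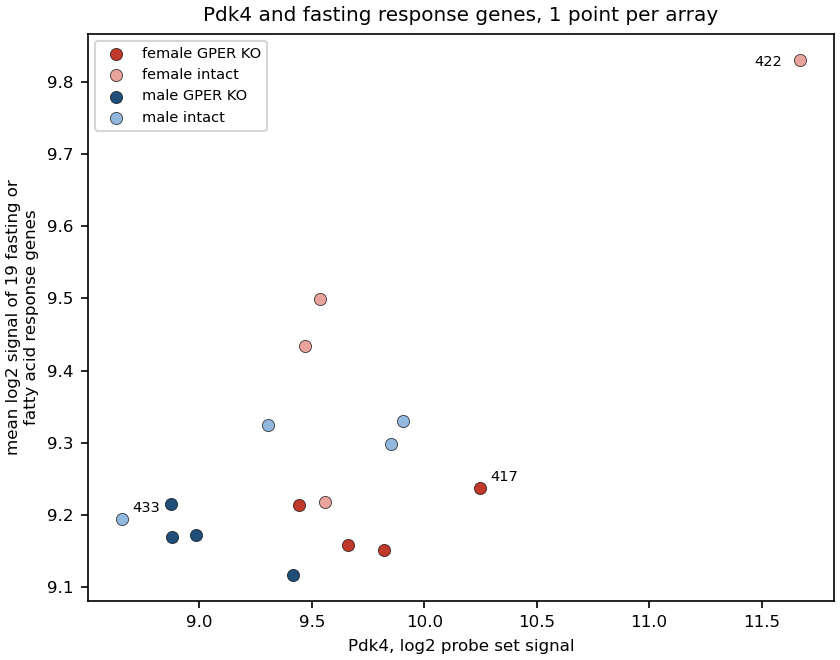
Pdk4 (horizontal axis, log2 probe set signal) against the mean log2 signal of 19 genes raised by fasting or fatty acids, Pdk4 not among them (vertical axis), with 1 point per mouse coloured by group. Mouse 422 stands alone at 11.67 and 9.83; the female GPER KO mice lie at 9.15 to 9.24 on the vertical axis and the male GPER KO mice at 9.12 to 9.22.

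Of the genes raised by fasting or fatty acids, 3 were called over both sexes. The array mean of the list ran from 9.15 to 9.24 in female GPER KO and from 9.22 to 9.83 in female intact mice (to 9.50 without 422), and from 9.12 to 9.22 in male GPER KO and from 9.20 to 9.33 in male intact mice. The array means overlapped in each sex. All 3 of the 19 called were lower in GPER KO (the share of all genes called lower was 0.538%, and 1.36% were called in either direction). They were Acot1, an acyl-CoA thioesterase (-1.01, SE 0.20, limma adjusted p = 0.0153), its mitochondrial relative Acot2 (-0.55, SE 0.13, limma adjusted p = 0.0459) and the beta-oxidation isomerase Eci1 (-0.33, SE 0.06, limma adjusted p = 0.0147). Within females or males alone none of the 19 was called, and the medians of the list were -0.23 in females, -0.14 in males and -0.10 over both, where all genes had -0.02, 0.01 and -0.002. The female median was -0.16 without 422 and -0.09 without 421 and 422. Without mouse 422 all 3 calls remained (Acot1 -0.83, Acot2 -0.44, Eci1 -0.30). The call of Acot2 was lost on leaving out 14 of the 16 arrays one at a time, with an adjusted p of at most 0.105, and Acot1 and Eci1 kept theirs in all 16. Without 421 and 422 together Acot1 stayed called, and Acot2 (-0.38, limma adjusted p = 0.0709) and Eci1 (-0.26, limma adjusted p = 0.0793) did not. Acot2 also missed the threshold in the additive model (limma adjusted p = 0.0540), with eBayes trend and robust (0.0557) and with animal numbers, low or high, as a block (0.0585).

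No relation of Pdk4 to another member across arrays passed adjustment. Over 16 arrays, and before any adjustment, its strongest relation among the 9 other members was with Pdp1 (Pearson r = -0.59, permutation p = 0.0464, adjusted p = 0.349; Spearman rho = -0.16, permutation p = 0.547, adjusted p = 0.943). Without 422 and 433, the mice farthest from the Pdk4 median, r was 0.11. For Pdha1 r was -0.47 with all arrays (permutation p = 0.0776, adjusted p = 0.349; rho = -0.17, permutation p = 0.528, adjusted p = 0.943) and 0.24 without them. The smallest adjusted p of the 9 relations was 0.349. For Pdp1 r was -0.75 within females and 0.20 within males.

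Pdk1, the kinase that hypoxia induces, was lower in male GPER KO mice without overlap in 2 of its 3 probe sets, yet was not called. In males its main probe set read 8.42, 8.40, 8.52 and 8.32 in GPER KO, against 8.59, 8.71, 8.71 and 8.55 in intact mice. All 4 male GPER KO mice lay below all 4 intact males (difference -0.22, SE 0.10, limma adjusted p = 0.456; exact permutation p = 0.0286), a separation that 1.97% of all genes showed in this direction. In females the readings were 8.62, 8.58, 8.35 and 8.53 in GPER KO and 8.59, 8.24, 8.13 and 8.65 in intact mice. Both low intact females were 421 and 422, and the difference of 0.12 (SE 0.10, limma adjusted p = 0.665) was -0.09 without them. The gene's 2 other probe sets gave -0.13 and -0.10 in females and -0.16 and -0.15 in males, where the first of them overlapped between genotypes (exact permutation p = 0.143). They correlated with the main one at 0.53 and 0.58 over 16 arrays, and averaging all 3 turned the female difference to -0.03.

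Pdk2, the kinase found in most tissues, was not called. In females it read 8.34, 8.15, 8.25 and 8.20 in GPER KO and 8.45, 8.48, 8.09 and 8.38 in intact mice. In males it read 8.08, 8.31, 8.05 and 8.45 in GPER KO and 8.22, 8.55, 8.44 and 8.32 in intact mice. The groups overlapped in both sexes, with differences of -0.12 (SE 0.10, limma adjusted p = 0.685) in females and -0.16 (SE 0.10, limma adjusted p = 0.667) in males, and the female one was -0.18 without 421 and 422.

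Pdk3, an X-linked kinase, was near the floor of the array. It read 2.93 to 3.48 over all 16 arrays, at percentile 42.7 of all probe sets, while the other 9 members lay at percentile 82.8 or above. In females it averaged 3.32 ± 0.07 in GPER KO and 3.16 ± 0.16 in intact mice (SD, n = 4 each), with a difference of 0.16 (SE 0.08, limma adjusted p = 0.425). In males it averaged 3.29 ± 0.13 in GPER KO and 3.24 ± 0.10 in intact mice (SD, n = 4 each), with a difference of 0.05 (SE 0.08, limma adjusted p = 0.902). At this signal the array limits what can be seen.

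Pdp2, the catalytic subunit of a phosphatase that reactivates the complex and that responds to insulin and feeding, was the only member called. In males it read 5.93, 6.19, 5.69 and 6.02 in GPER KO mice 431, 432, 444 and 451, against 6.56, 6.17, 6.42 and 6.47 in intact mice 430, 433, 452 and 453. GPER KO mouse 432 and intact mouse 433 met at 6.19 and 6.17, and the other 3 GPER KO males lay below every intact male. The difference was -0.45 (SE 0.09, limma adjusted p = 0.0367), or 0.734-fold, and the exact permutation p was 0.0571. In females Pdp2 read 6.07, 5.95, 6.0 and 6.10 in GPER KO and 6.17, 6.23, 6.12 and 6.15 in intact mice. These groups did not overlap (difference -0.14, SE 0.09, limma adjusted p = 0.584; exact permutation p = 0.0286), as held for 3.73% of all genes in this direction. Over both sexes Pdp2 was 0.29 lower on the log2 scale (-0.29, SE 0.07, limma adjusted p = 0.0372; exact permutation p = 0.00122), or 0.817-fold.

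The Pdp2 call was close to the threshold. On leaving out 1 array at a time it held in 6 of 16 fits for males, with differences of -0.53 to -0.36 and adjusted p of 0.0144 to 0.137, and in 5 of 16 over both sexes, with -0.33 to -0.25 and 0.0127 to 0.0813 (held without 422, 425, 432, 433 or 451). The male call was lost without 417, 418, 426, 427, 430, 431, 444, 451, 452 or 453, and with the male arrays fitted alone (limma adjusted p = 0.164). Without 421 and 422 together, adjusted p from limma was 0.0505 in males and 0.103 over both sexes. The sign stayed negative in every one of these fits.

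Some markers of macrophages were higher in GPER KO mice. Of the 10 measured, 4 were called higher in males and 4 over both sexes, where 0.620% and 1.36% of all genes were called in either direction. In females 0 of 10 were called by limma. Their array mean ran from 5.22 to 5.97 in male GPER KO and from 4.80 to 5.41 in male intact mice, and from 5.05 to 5.33 in female GPER KO and from 4.68 to 4.96 in female intact mice. All 10 endothelial markers lay below intact in both sexes, none of them called, with array means of 5.53 to 6.13 in male GPER KO and 5.68 to 6.48 in male intact mice, and of 5.42 to 5.88 in female GPER KO and 5.69 to 6.31 in female intact mice. No marker of fibroblasts, smooth muscle and pericytes, adipocytes, red cells, T and B cells or atrial myocytes was called. The 3 measured atrial markers still varied widely, with a median difference of -1.11 in females and 1.16 in males. Their array mean averaged 6.57 ± 0.87 in female GPER KO and 7.37 ± 0.66 in female intact mice. In males it averaged 7.77 ± 0.56 in GPER KO and 6.93 ± 0.71 in intact mice (SD, n = 4 each). These groups overlapped in both sexes. The part of other cell types in the Pdp2 difference was not tested.

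Pdp1, the phosphatase subunit that calcium activates in muscle, was not called in either sex. Its main probe set averaged 6.81 ± 0.20 in female GPER KO and 6.69 ± 0.44 in female intact mice, and 6.82 ± 0.10 in male GPER KO and 6.84 ± 0.10 in male intact mice (SD, n = 4 each). The wide female intact spread came from mouse 422, at 6.07, where the other 3 read 7.01, 6.65 and 7.01. The difference was 0.12 in females (SE 0.16, limma adjusted p = 0.807), -0.01 in males (limma adjusted p = 0.990) and -0.21 in females without 421 and 422. Its other probe set correlated with the main one at 0.73 and was also lowest in 422, at 5.04. It gave 0.32 in females and -0.30 in males (SE 0.23 each, limma adjusted p over probe sets = 0.620 and 0.759).

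**Figure D3:**
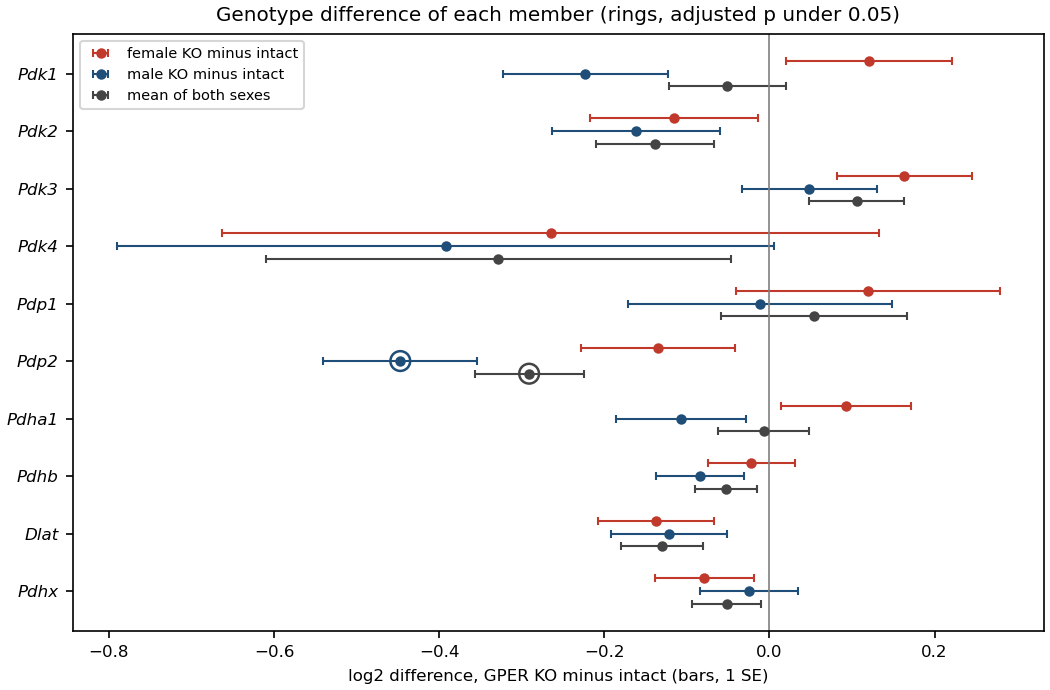
Log2 difference of GPER KO minus intact (horizontal axis; bars, 1 SE from limma) for each member in females, in males and as the mean of both sexes; rings mark an adjusted p under 0.05. Pdp2 is ringed in males at -0.45 and over both sexes at -0.29, and the bars of Pdk4 are the widest, with an SE of 0.40 in each sex.

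No subunit of the catalytic core was called. Pdha1, the X-linked E1 alpha subunit that carries the phosphorylated serines, averaged 11.40 ± 0.06 in female GPER KO and 11.31 ± 0.16 in female intact mice, and 11.33 ± 0.11 in male GPER KO and 11.44 ± 0.10 in male intact mice (SD, n = 4 each). Its differences were 0.09 in females (SE 0.08, limma adjusted p = 0.671) and -0.11 in males (SE 0.08, limma adjusted p = 0.726), and the groups overlapped. Mouse 422 had the lowest Pdha1 of all 16 arrays, 11.09, and without 421 and 422 the female difference was -0.03. The second probe set followed the first at r = 0.82 over 16 arrays.

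The probe sets of Pdhb, the E1 beta subunit, correlated at 0.69 over 16 arrays but differed in how far they separated the genotypes. The brighter one, which stands for the gene, averaged 11.08 ± 0.06 in female GPER KO and 11.10 ± 0.02 in female intact mice, and 11.09 ± 0.07 in male GPER KO and 11.17 ± 0.08 in male intact mice (SD, n = 4 each). Its SD within groups, 0.0612, was smaller than that of all but 5.10% of genes, and its differences were -0.02 in females (limma adjusted p = 0.905) and -0.08 in males (limma adjusted p = 0.668). The dimmer probe set separated the genotypes completely. In females it read 6.11, 5.98, 6.25 and 6.23 in GPER KO and 6.38, 6.47, 6.34 and 6.33 in intact mice. In males it read 6.28, 6.28, 5.92 and 6.32 in GPER KO and 6.51, 6.58, 6.33 and 6.47 in intact mice. All 8 GPER KO mice lay below all 8 intact mice, as was so for 0.135% of the 28898 probe sets in this direction. The difference was -0.24 in females and -0.27 in males (SE 0.09 each, limma adjusted p over probe sets = 0.297 and 0.255), and -0.26 over both sexes (SE 0.06, limma adjusted p over probe sets = 0.0606), so no limma test was passed. The exact permutation p over both sexes was 0.000408, the smallest that 4900 assignments can give. It is not adjusted for the number of probe sets, and the brighter probe set gave an exact permutation p of 0.102. Which Pdhb transcripts each probe set reads was not examined here.

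Dlat, the E2 subunit that carries lipoate, was lower in male GPER KO mice without overlap in each of its 3 probe sets, and was not called. The main one read 9.18, 9.20, 9.18 and 9.16 in male GPER KO, against 9.33, 9.21, 9.26 and 9.41 in male intact mice (difference -0.12, SE 0.07, limma adjusted p = 0.622; exact permutation p = 0.0286). The 2 others differed by -0.13 and -0.26 in males, and 2.06% of all probe sets separated the male groups in this direction. In females the main probe set read 8.99, 9.00, 9.12 and 9.14 in GPER KO and 9.42, 9.17, 9.12 and 9.08 in intact mice. Those groups overlapped (-0.14, SE 0.07, limma adjusted p = 0.435), and the third probe set gave 0.03. Over both sexes the difference was -0.13 (SE 0.05, limma adjusted p = 0.286; exact permutation p = 0.00776).

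Pdhx, the E3-binding protein that docks dihydrolipoamide dehydrogenase, averaged 8.52 ± 0.10 in female GPER KO and 8.60 ± 0.08 in female intact mice, and 8.69 ± 0.07 in male GPER KO and 8.72 ± 0.04 in male intact mice (SD, n = 4 each). The groups overlapped, and the differences were -0.08 in females (SE 0.06, limma adjusted p = 0.622) and -0.02 in males (SE 0.06, limma adjusted p = 0.935), the female one -0.02 without 421 and 422.

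**Figure D4:**
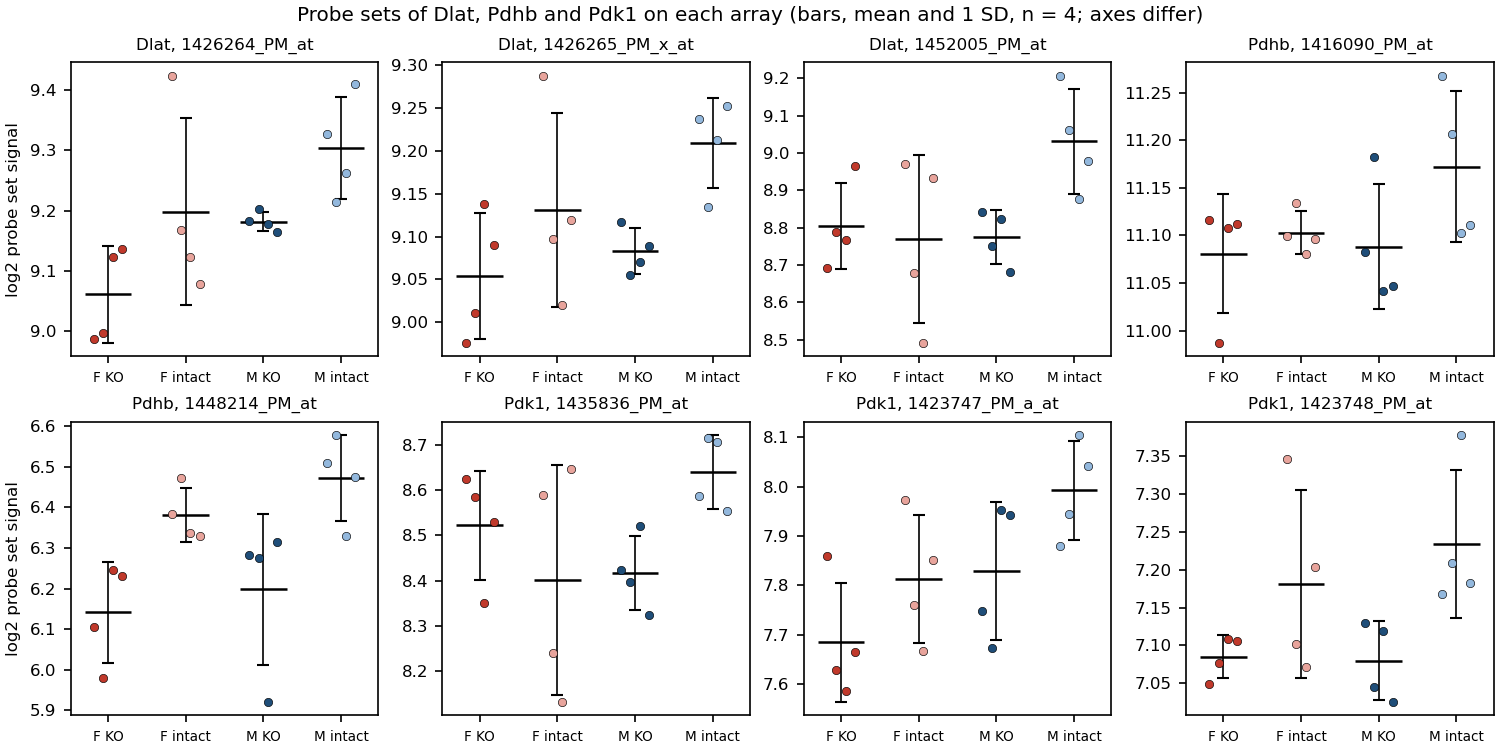
Log2 signal (vertical axes, which differ between panels) of each probe set of Dlat, Pdhb and Pdk1 on 16 arrays, with GPER KO (KO) left of intact within females (F) and males (M), and with the mean and 1 SD of 4. In Pdhb the dimmer probe set puts all 8 GPER KO mice below all 8 intact mice while the brighter one does not, and in Dlat male GPER KO mice lie below male intact mice in each probe set.

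Taking the 10 members as a group, 0 were called in females (0.281% of all genes were), with 6 differences below 0, as had 58.8% of all genes, and a median of -0.05. In males 1, Pdp2, was called lower (0.620% of all genes were called, 0.111% lower), with 9 differences below 0, as had 43.5% of all genes, and a median of -0.11, where all genes had 0.01. Over both sexes, a contrast that includes the same male arrays, 1, Pdp2 again, was called lower (1.36% of all genes were called, 0.538% lower). Here 8 differences were below 0, against 50.9% of all genes, and the median was -0.05, where all genes had -0.002. At an unadjusted p under 0.05, limma counted 0 members in females, 2 in males and 2 over both sexes (12.6%, 10.1% and 11.7% of all genes). The members were chosen as a group with these data known, so the counts are given as a description.

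No member's genotype difference was shown to differ between the sexes. The difference of differences (male minus female) was -0.34 for Pdk1 (SE 0.14), -0.31 for Pdp2 (SE 0.13) and -0.20 for Pdha1 (SE 0.11), with limma adjusted p of 0.426, 0.427 and 0.517. Without 421 and 422 these were -0.13, -0.32 and -0.07. With limma 0 of 10 members and 0.00% of all genes were called for this contrast, and 2 members and 11.0% of all genes had an unadjusted p under 0.05.

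Between the sexes, too, no member was called. Among intact mice (male minus female) Pdp2 differed by 0.24 (SE 0.09, limma adjusted p = 0.201), Pdk1 by 0.24 (SE 0.10, limma adjusted p = 0.235) and Pdk4 by -0.63 (SE 0.40, limma adjusted p = 0.438), the last of these -0.09 without mouse 422. Without 421 and 422 Pdp2 differed by 0.25 and Pdk1 by 0.02. The X-linked Pdha1 and Pdk3 differed by 0.13 and 0.09 (limma adjusted p = 0.413 and 0.621), and by 0.0040 and 0.04 without 421 and 422. Of all genes 0.579% were called here. In GPER KO mice, compared after the array values were seen, 3 of 10 members did not overlap between the sexes, as held for 6.39% of all genes. Pdk4 averaged 9.04 ± 0.26 in males and 9.79 ± 0.34 in females (SD, n = 4 each), a difference of -0.76 (SE 0.40, limma adjusted p = 0.492). Dlat averaged 9.18 in males and 9.06 in females (0.12, SE 0.07, limma adjusted p = 0.531), and Pdhx 8.69 in males and 8.52 in females (0.17, SE 0.06, limma adjusted p = 0.294). The exact permutation p was 0.0286 for each, and none passed limma's test, as 0.0702% of all genes did.

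In the order of group means, Pdk4 was highest in female intact, then female GPER KO, male intact and male GPER KO mice, and every neighbouring pair overlapped. For Pdp2 the order was male intact, female intact, female GPER KO and male GPER KO, and only the middle pair did not overlap. Dlat ran male intact, female intact, male GPER KO, female GPER KO, and only the last pair did not overlap. In the other 7 members every pair of neighbours overlapped.

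In the list of sister complexes, 1 gene was called, and in both sexes. Of 9 genes for dihydrolipoamide dehydrogenase, the related keto acid dehydrogenases and regulatory proteins, 8 were measured. Dld, the gene for dihydrolipoamide dehydrogenase itself, was not among them. Bckdhb was called lower in females, in males and over both sexes, where 0.281%, 0.620% and 1.36% of all genes were called in either direction. Bckdhb encodes the E1 beta subunit of the branched-chain keto acid dehydrogenase, the counterpart of Pdhb. It read 7.54, 7.58, 7.49 and 7.52 in female GPER KO and 8.20, 8.15, 8.06 and 7.88 in female intact mice (-0.54, SE 0.08, limma adjusted p = 0.00372). In males it read 7.48, 7.55, 7.43 and 7.68 in GPER KO and 7.97, 7.87, 8.11 and 8.07 in intact mice (-0.47, SE 0.08, limma adjusted p = 0.00693). Neither sex showed overlap, as held in this direction for 3.73% of all genes in females and 1.97% in males. The 3 calls held on leaving out each array in turn, but the female one was lost without 421 and 422 together (-0.50, limma adjusted p = 0.0888). The list's medians were -0.16 in females and -0.26 in males, where all genes had -0.02 and 0.01.

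Among genes of cofactor supply and regulators of PDK genes, 2 were called. Of 4 thiamine genes 2 were measured. Of these 1 was called, in females and over both sexes, where 0.281% and 1.36% of all genes were called. It was Slc19a2, a thiamine transporter, which was higher in female GPER KO mice (0.47, SE 0.08, limma adjusted p = 0.0138) and over both sexes (0.39, SE 0.05, limma adjusted p = 0.00131). In males its difference was 0.31 (limma adjusted p = 0.102), and the female call was lost without mouse 426 (limma adjusted p = 0.0501) and with 421 and 422 left out together (0.50, limma adjusted p = 0.117), with the female arrays alone (limma adjusted p = 0.119) and with the mean of its probe sets (0.32, limma adjusted p = 0.0596). Among 14 of 15 regulators of PDK genes, 1 was called, the transcription factor Myc, which was higher over both sexes, where 1.36% of all genes were called (0.27, SE 0.06, limma adjusted p = 0.0426), and leaving out single arrays lost that call in 12 of 16 fits, with an adjusted p of at most 0.0960, as did leaving out 421 and 422 together (limma adjusted p = 0.0655). Esrra, which encodes estrogen-related receptor alpha, differed by -0.26 in females (SE 0.07, limma adjusted p = 0.144), and Hif1a, the hypoxia-inducible factor, by 0.57 (SE 0.18, limma adjusted p = 0.215), which was 0.18 without 421 and 422. In males Epas1, its relative, differed by -0.30 (SE 0.10, limma adjusted p = 0.245).

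In other lists around the complex limma called 0 genes in females, in males or over both sexes. They were pyruvate transport and other fates of pyruvate (11 of 14 measured), lipoate synthesis (12 of 12), FOXO targets that insulin suppresses (7 of 8), hypoxia targets (9 of 10) and circadian output (11 of 12). At an unadjusted p under 0.05 limma counted 1 gene in females and 1 in males for pyruvate transport, where Gpt2, an alanine aminotransferase that works on pyruvate, differed by -0.42 in males (SE 0.15, limma adjusted p = 0.285). It counted 0 and 0 for lipoate, 0 and 1 for FOXO targets, 1 and 1 for hypoxia, and 0 and 0 for circadian output. Over both sexes it counted 3 for pyruvate transport and 0 for each of the 4 other lists. Of all genes 12.6% in females, 10.1% in males and 11.7% over both sexes were under that p.

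By Pearson r over the 16 arrays, the genes most like Pdk4 were Cysrt1 (0.90), Vstm4 (0.87), Ms4a15 (0.86), Vwc2 (0.84) and Bpifb1 (0.84). Each of them had its highest reading in mouse 422, and without 421 and 422 their r was 0.81, 0.63, 0.63, 0.53 and 0.48. Vwc2 and Bpifb1 are dim, at percentiles 27.8 and 25.2 of all probe sets. The gene most like Pdp2 was Etfdh, which encodes electron transfer flavoprotein dehydrogenase (0.82). Next came the laminin gene Lama2 (0.81), Smad4, a mediator of TGF-beta signalling (0.81), 1700123O12Rik (0.81) and Pcca, a propionyl-CoA carboxylase subunit (0.81). With the group means taken off, the 5 values of r were 0.54, 0.48, 0.42, 0.82 and 0.45 in this order. The points share normalization and, for Pdp2, the genotype difference, so these are descriptions of 16 arrays.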

How the data were processed

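RNA of cardiomyocytes from 16 mice was hybridised to Affymetrix GeneAtlas MG-430 PM arrays, 1 array per mouse. The authors deposited log2 values per probe set, and RMA and Partek are named, without versions, in the submitters' processing notes. RMA corrects background, quantile normalizes and summarises probes, which can compress differences of dim probe sets. Scanner files were not used here. The 4 arrays per group limit the precision.

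Of 45141 probe sets, 28898 carry 1 gene symbol in the platform annotation, 551 several and 15692 none. Symbols were updated through Entrez identifiers to the RefSeq table (28689 matched), and only probe sets with 1 gene were kept, which gave 17097 genes. The gene test was limma 3.58.1 in R 4.3.3 with lmFit, contrasts.fit and eBayes, fitted to the 16 arrays as 4 groups with no filter, and Benjamini-Hochberg adjustment over all genes. Two-sided exact permutation tests (Python 3.11.15, scipy 1.17.1, numpy 2.4.6, pandas 2.3.3) used all 70 assignments within a sex, or 4900 over both. Exact p-values were not adjusted for the number of tests. Permutation p-values of correlations used 100000 resamples. The limma step was tested on simulated data.

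The members and all gene lists were chosen with earlier results of these data known. Named were the 10 members with every probe set, up to 3 called genes per list and contrast or else the 2 with the smallest p, and the 5 genes most like Pdk4 and Pdp2, of which not all uncalled ones are printed. Alternatives were averaging each gene's probe sets, every probe set on its own, a filter for signal above percentile 40 on 4 or more arrays (12954 genes), quantile normalization again, median centring, array weights, trend and robust eBayes, blocking by low or high animal number, the compared groups alone, an additive model, each array left out, and 421 and 422 left out together. The contrast of the sexes in GPER KO mice, the share of probe sets whose groups do not overlap, and the alternatives for genes outside the complex were chosen after seeing the data. Array strips and days are not given in the labels. Nothing in the labels says that animals were littermates.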

Additional observations from a re-analysis of the deposited data

Results flagged for a closer look

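In groups of 4 mice, 5 of 68 member probe set groups held a mouse that stood far from the other 3 by Dixon's test, and chance flags about 1 group in 20. Pdk4 was far highest in female intact mouse 422 (11.67, next 9.56). In Pdp1's second probe set, female GPER KO mouse 426 was lowest (5.53, next 6.03). In Pdha1's second probe set, male GPER KO mouse 451 was lowest (9.87, next 10.22). In Pdhb's brighter probe set, female GPER KO mouse 419 was lowest (10.99, next 11.11), and in its dimmer one male GPER KO mouse 444 was lowest (5.92, next 6.28). The 5 values came from 5 different mice.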

How the results depend on the processing

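No paired analysis was possible because the animal numbers are unique and pair no arrays across groups. The number of members called in males, 1 (Pdp2), was 0 with the male arrays alone and 0 without 421 and 422, and ranged from 0 to 1 as each array was left out. Over both sexes, also 1, it was 0 without 421 and 422, 0 in the additive model, and ranged from 0 to 1 as each array was left out. All other alternatives kept both calls, and the counts of 0 called in females, between the sexes in intact mice and for the difference between the sexes stayed at 0 in all.

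Of 39 member differences, 28 kept their sign in every alternative. None of the 11 that changed sign was called. Without 421 and 422 the female differences were -0.095 for Pdk1, 0.28 for Pdk4, -0.21 for Pdp1 and -0.033 for Pdha1, and that of Pdp1 over both sexes was -0.11. With the mean of probe sets the female Pdk1 difference was -0.034. With array weights Pdp1 was 0.013 in males and Pdha1 0.0046 over both sexes, and with quantile normalization again Pdha1 was 0.012 over both sexes. As each array was left out, female differences ranged from -0.46 to 0.27 for Pdk4, -0.086 to 0.23 for Pdp1 and -0.034 to 0.0094 for Pdhb. Male ones ranged from -0.013 to 0.084 for Pdk3, -0.037 to 0.038 for Pdp1 and -0.054 to 0.0014 for Pdhx. Over both sexes they ranged from -0.049 to 0.11 for Pdp1 and -0.043 to 0.019 for Pdha1, and for the difference between the sexes from -0.66 to 0.070 for Pdk4. Esrra in males, -0.05, was 0.0012 without mouse 444. The cause of these changes was not tested. Of the 5 genes most like Pdk4, 1 remained among the top 5 by Spearman's rho, 1 with group means taken off and 1 without 421 and 422, and for Pdp2 these were 1, 0 and 0.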
